A study of Mus musculus with 35 samples.

Results

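Renal vitamin D metabolism, phosphate handling and apical protein uptake were followed through 9 genes: Cyp27b1, Cyp24a1, Vdr, Kl, Slc34a1, Slc34a3, Slc20a1, Lrp2 and Cubn. They were chosen by name for their function, with earlier results of these data known. They are 9 of the 18193 genes with a probe set of their own, and all 9 were among the 13004 genes above the filter on dim signals. The study hybridised whole-kidney RNA from diabetic and control FVB/NJ mice to Affymetrix arrays. Diabetes came from the OVE26 line, known for a calmodulin transgene that an insulin promoter drives in pancreatic beta cells and that leaves the animals short of insulin. At 2 months and again at 8 months the arrays numbered 6 from diabetic mice and 6 from control mice, and 4-month mice gave 7 diabetic and 4 control ones. The labels give no transgene for the control mice and do not say whether each array came from its own animal, so the p-values measure the spread between these arrays.

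The kidney makes the active vitamin D hormone, calcitriol, in the proximal tubule. Cyp27b1 carries out the activating step, Cyp24a1 degrades the hormone, and Vdr is the nuclear receptor that binds it. Kl encodes Klotho, the co-receptor through which the bone hormone FGF23 lowers phosphate reabsorption and calcitriol production. Slc34a1 and Slc34a3 encode the sodium-phosphate cotransporters of the tubular brush border, while Slc20a1 encodes a widely expressed phosphate carrier of another family. Lrp2 encodes megalin and Cubn encodes cubilin, the receptors that take filtered proteins, vitamin D with its binding protein among them, out of the tubular fluid.

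Values are log2 probe set signals, and a difference is the diabetic minus the control mean on that scale with the SE of a limma fit across all genes. Fold values and fractions of the control mean are computed from this difference and are ratios of geometric means of the linear signal. A gene was called when its p, adjusted over all 13004 genes after Benjamini and Hochberg, was under 0.05. Levels are compared within a gene only, since different probe sets bind with different strength. Array means lay between 6.427 and 6.443 at 2 months, between 6.018 and 6.036 at 4 months and at 6.537 at 8 months, so levels of different ages may be on different scales. At 2 months, arrays 5 and 6 of both groups stood apart from the other 8 on the first principal component. Control array 6 of that age had a log2 ratio of the 3′ to the 5′ beta-actin probe sets of 2.56, against 0.81 to 1.35 on the other 11. The 19 proximal tubule genes used as a tissue check had mean signals between 11.53 and 12.25 on every array.

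At 2 months 1 of the 9 genes was called, Cyp27b1, which was higher in diabetic kidneys, where 2.54% of all genes tested were called, 0.754% higher and 1.78% lower. At 4 months limma called 0 of the 9, against 0.969% of all genes, 0.415% higher and 0.554% lower, although 3 had an unadjusted p under 0.05 and an exact permutation test gave an unadjusted p under 0.05 for 3. At 8 months 7 of the 9 were called, where 16.8% of all genes tested were. Cyp27b1 and Slc20a1 rose, against 9.87% of all genes called higher, and Kl, Slc34a1, Slc34a3, Lrp2 and Cubn fell, against 6.95% called lower. The 9 genes had a median difference of 0.05 in the youngest mice, -0.03 at 4 months and -0.32 at 8 months. The same median over all genes tested stood at -0.01, 0.01 and 0.00. The groups did not overlap for 1 of the 9 genes at 2 months, 1 at 4 months and 6 at 8 months. Among all genes tested the share without overlap was 1.5% at 2 months, with 0.538% higher in diabetic kidneys and 0.961% lower. It was 4.81% at 4 months, with 2.37% higher and 2.44% lower, and 9.7% at 8 months, with 5.41% higher and 4.28% lower.

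**Figure D1:**
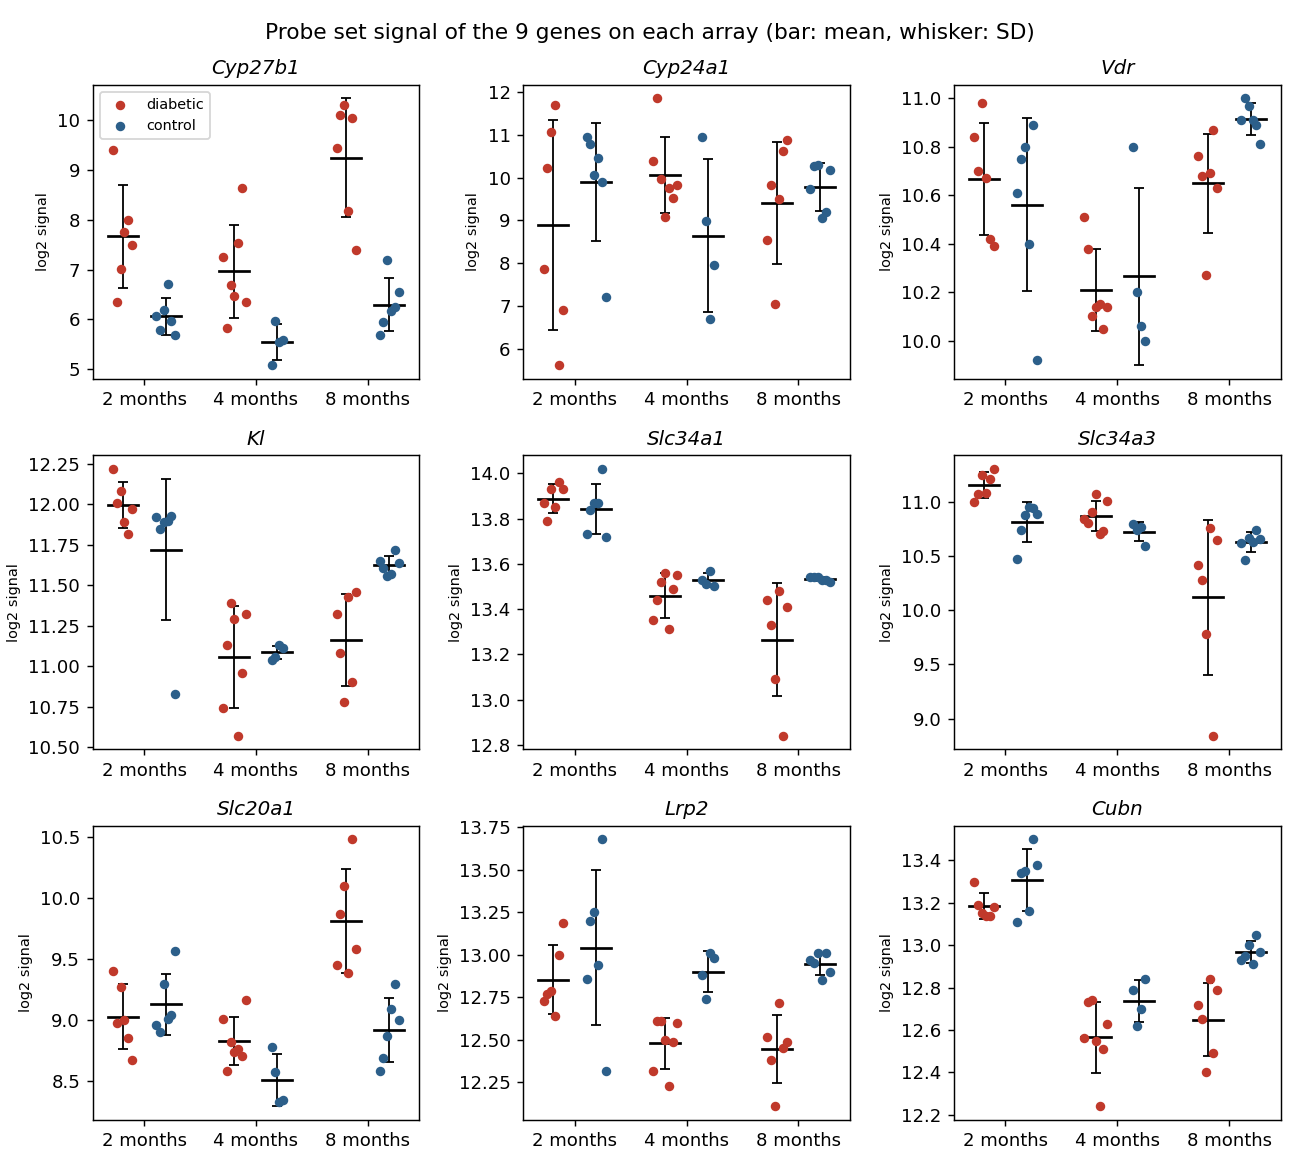
Log2 signal of each of the 9 genes on every array, with diabetic arrays left of control arrays at 2, 4 and 8 months. Points are arrays, bars are group means and whiskers are SD; the 8-month diabetic arrays lie apart from all controls of that age for 6 genes, and Cyp24a1 spreads over several log2 units within groups.

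**Figure D2:**
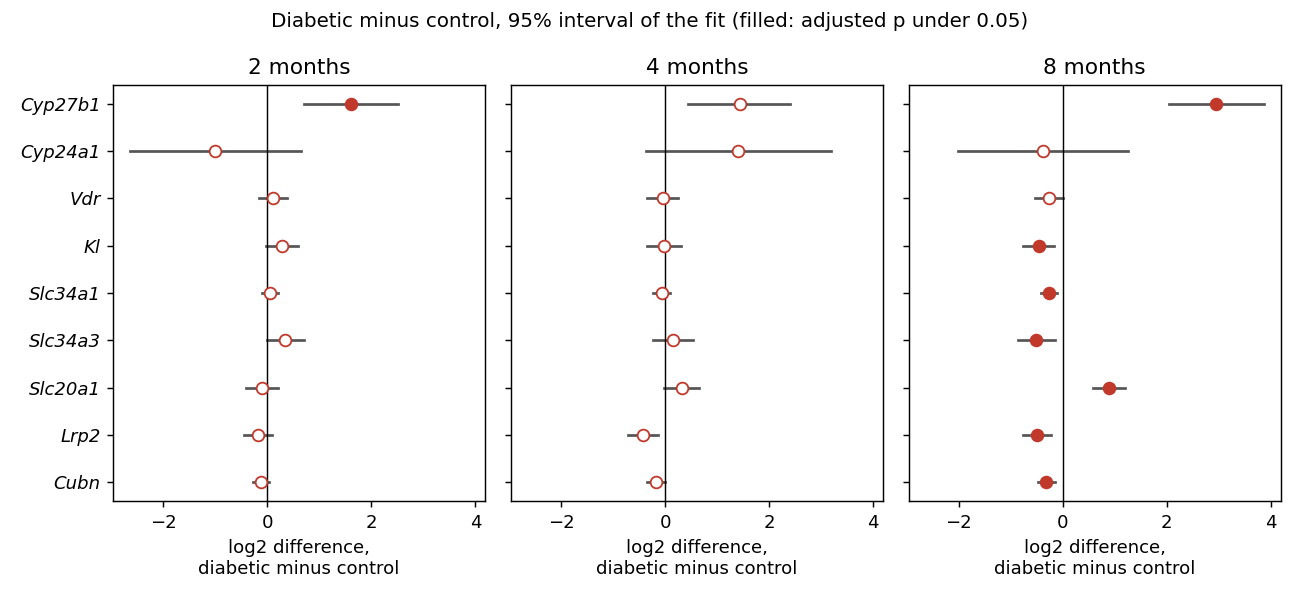
Log2 difference, diabetic minus control, of the 9 genes at each age, with the 95% interval of the fit and filled points where the adjusted p was under 0.05. At 8 months 2 filled points lie above 0 and 5 below it; at 4 months no point is filled.

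Cyp27b1 had the largest difference of the 9 genes at each age. It was called at 2 and 8 months. Its promoter is shown because of that size, as the 300 bases up to and just past the gene start on the plus strand of RefSeq's GRCm38.p6, chr10:127047996-127048295. Motifs in capitals here and below were searched on both strands: AGGTCA, a half-site of nuclear receptors, found in 16.3% of 32851 mouse promoter windows of that length, GTTAAT, a half-site of HNF1, found in 7.1%, CACGTG, an E-box, found in 7.15%, and TATAAA, the box of many core promoters, found in 13.6%. The Cyp27b1 window holds none of these letters.
Cyp27b1 promoter: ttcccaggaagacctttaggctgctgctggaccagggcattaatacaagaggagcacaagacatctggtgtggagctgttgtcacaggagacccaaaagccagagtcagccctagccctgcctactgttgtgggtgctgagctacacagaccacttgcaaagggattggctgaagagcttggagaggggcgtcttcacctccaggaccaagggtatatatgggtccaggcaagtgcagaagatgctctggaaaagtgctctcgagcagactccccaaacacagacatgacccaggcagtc

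On the 2-month arrays Cyp27b1 had signals of 6.35 to 9.41 in diabetic kidneys with a median of 7.62, against 5.68 to 6.72 in control kidneys with a median of 6.01. A single diabetic array, number 2, reached into the control range, and the difference was 1.60 ± 0.45, or 3.04-fold (adjusted p = 0.0446). At 4 months the signals were 5.82 to 8.63 in diabetic kidneys with a median of 6.69, against 5.08, 5.54, 5.58 and 5.96 in control kidneys. Here too 1 diabetic array lay within the control range, and the difference of 1.43 ± 0.49 was not called (adjusted p = 0.185, exact permutation p = 0.0152, two-sided). In the oldest mice the signals were 7.39 to 10.31 in diabetic kidneys with a median of 9.74, against 5.68 to 7.19 in control kidneys with a median of 6.20. The groups did not overlap, and the difference was 2.95 ± 0.45, or 7.72-fold (adjusted p = 1.23e-05). The control signals were dim, with means of 6.06, 5.54 and 6.30 at 2, 4 and 8 months, against the filter at 5.27. Control array 1 of 4 months, at 5.08, lay below the filter. The fold values thus rest on dim control signals, and Cyp27b1 had no second probe set for comparison. The step between the 2-month and the 8-month difference, 1.34 ± 0.63, did not pass the test (adjusted p = 0.261).

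The 2-month call for Cyp27b1 was narrow. It held without diabetic array 2, diabetic array 3 or control array 4 and was lost without any other single array of that age. Without diabetic array 1, the highest, the difference was 1.26 (adjusted p = 0.115). It was 1.44 without arrays 5 and 6 of both groups (adjusted p = 0.193) and 0.90 without the 4 arrays high in the clock gene Arntl (adjusted p = 0.572). At 8 months the call held without each single array, with differences from 2.73 to 3.32.

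Cyp24a1, whose product degrades calcitriol, was not called at any age, and its arrays differed more within groups than the groups did. At 2 months its signals in diabetic kidneys were 5.61, 6.91, 7.87, 10.23, 11.07 and 11.70, against 7.21, 9.90, 10.07, 10.46, 10.79 and 10.96 in control kidneys. Both groups hold arrays near the bottom of the range, 3 diabetic and 1 control, and the difference was -1.0 ± 0.81 (adjusted p = 0.61). At 4 months the signals lay between 9.08 and 11.86 in diabetic kidneys, against 6.69, 7.96, 8.99 and 10.95 in control kidneys, with a difference of 1.41 ± 0.88 (adjusted p = 0.597). At 8 months they lay between 7.05 and 10.88 in diabetic kidneys and between 9.05 and 10.29 in control kidneys, with a difference of -0.38 ± 0.81 (adjusted p = 0.812). The 95% interval at 8 months ran from -2.02 to 1.26, so changes of more than 2-fold in either direction lie inside it.

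The low Cyp24a1 arrays of the younger mice were the arrays with high Arntl, a core clock gene whose transcript cycles over the day in kidney. At 2 months the 4 arrays with Arntl between 7.66 and 8.28, diabetic arrays 1, 5 and 6 and control array 6, had Cyp24a1 signals between 5.61 and 7.87. The other 8 arrays, with Arntl between 6.52 and 6.82, had 9.90 to 11.70. Diabetic arrays 5 and 6 and control array 6 also stood apart on the first principal component, and control array 6 had the high beta-actin ratio of 2.56. Diabetic array 1 did not stand apart on that component, and control array 5, which did, had Cyp24a1 at 9.90. At 4 months control arrays 3 and 4, with Arntl at 7.84 and 8.17, had Cyp24a1 at 6.69 and 7.96, against 8.99 to 11.86 on the other 9 arrays. At 8 months the pattern was absent: diabetic array 5, the one with the highest Arntl at 7.81, had Cyp24a1 at 10.63, and diabetic array 3, with Arntl at 5.65, had the lowest Cyp24a1 signal, 7.05. With the clock genes Arntl and Dbp as a covariate the 2-month difference of Cyp24a1 was -0.39 ± 0.72, the 4-month one 0.22 ± 0.83 and the 8-month one 0.27 ± 0.72. Without the 4 high-Arntl arrays it was 0.57 ± 0.71 at 2 months, the opposite sign, and without control arrays 3 and 4 it was 0.09 ± 1.09 at 4 months. What sets the Arntl level of an array was not tested.

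**Figure D3:**
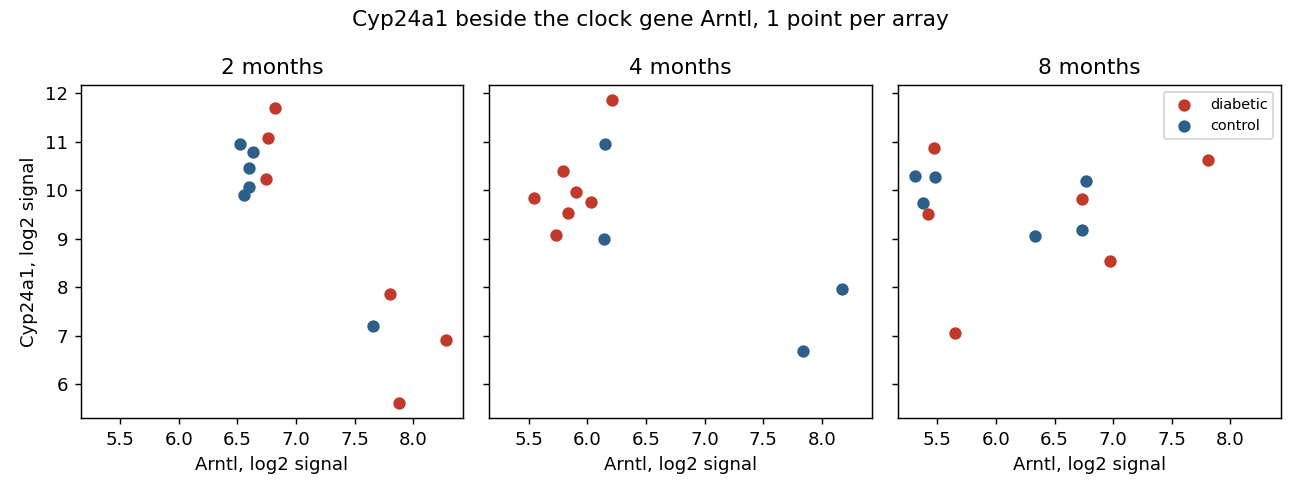
Cyp24a1 log2 signal against Arntl log2 signal, 1 point per array, for diabetic and control kidneys at 2, 4 and 8 months. The arrays with Arntl above 7.6 hold the lowest Cyp24a1 signals at 2 and 4 months, while the one such array at 8 months has a Cyp24a1 signal of 10.63.

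Vdr varied little. The receptor had medians of 10.69 in diabetic and 10.68 in control kidneys at 2 months and of 10.14 and 10.13 in the same order at 4 months. Its difference was 0.10 ± 0.13 at 2 months (adjusted p = 0.792) and -0.05 ± 0.15 at 4 months (adjusted p = 0.953). Of the 8-month arrays the diabetic ones lay between 10.27 and 10.87, against 10.81 to 11 on the control arrays, and only the highest diabetic array, number 5, overlapped. The difference of -0.26 ± 0.13 was not called (adjusted p = 0.191), although the exact permutation p for this single gene was 0.00433, two-sided and unadjusted. Fitted without the other ages it was called (adjusted p = 0.0457), and a second Vdr probe set differed by -0.27 ± 0.15 (adjusted p = 0.263 in a fit of all probe sets).

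Kl, which encodes Klotho, fell at 8 months and was called at neither younger age. Its signals were 11.82 to 12.22 in diabetic kidneys at 2 months, against 10.83 to 11.93 in control kidneys, a difference of 0.28 ± 0.15 that was not called (adjusted p = 0.376). Control array 6 alone among the controls lay below 11.85, and without it the 2-month difference was 0.10. At 4 months the signals were 10.57 to 11.39 in diabetic kidneys, against 11.04, 11.06, 11.11 and 11.13 in control kidneys, with a difference of -0.03 ± 0.16 (adjusted p = 0.983). At 8 months they were 10.78 to 11.46 in diabetic kidneys with a median of 11.20, against 11.56 to 11.72 in control kidneys with a median of 11.63. The groups did not overlap, and the diabetic geometric mean was 0.725 of the control one, a difference of -0.46 ± 0.15 (adjusted p = 0.0252). The call was lost without diabetic array 3 (-0.39, adjusted p = 0.088) or diabetic array 5 (-0.41, adjusted p = 0.0684). A dim second probe set with a mean of 6.33 differed by -0.01 ± 0.10 at 8 months, and the mean of both sets was not called (-0.24, adjusted p = 0.0739).

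The phosphate carriers moved in opposite directions at 8 months, and their promoters are shown to set them side by side, with matched motifs in capitals. All are from RefSeq's GRCm38.p6 and read 5′ to 3′ along the gene: Slc34a1 at chr13:55399398-55399697 on the plus strand, Slc34a3 at chr2:25234185-25234484 on the minus strand, and the first of 2 Slc20a1 starts at chr2:129198523-129198822 on the plus strand. The Slc34a1 window holds GTTAAT on each strand and TATAAA. The Slc34a3 window holds AGGTCA on each strand. The Slc20a1 window holds CACGTG at 2 places, of which the later overlaps an AGGTCA, and TATAAA. Promoter windows of the 8 genes found in the table were searched, and those of Vdr, Kl, Lrp2 and Cubn held none of the 4 motifs.
Slc34a1 promoter: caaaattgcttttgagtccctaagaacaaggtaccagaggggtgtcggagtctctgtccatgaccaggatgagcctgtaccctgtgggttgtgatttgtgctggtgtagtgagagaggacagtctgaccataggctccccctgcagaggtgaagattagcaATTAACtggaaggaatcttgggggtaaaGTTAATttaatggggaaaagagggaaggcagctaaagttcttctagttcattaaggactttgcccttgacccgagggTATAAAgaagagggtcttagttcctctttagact
Slc34a3 promoter: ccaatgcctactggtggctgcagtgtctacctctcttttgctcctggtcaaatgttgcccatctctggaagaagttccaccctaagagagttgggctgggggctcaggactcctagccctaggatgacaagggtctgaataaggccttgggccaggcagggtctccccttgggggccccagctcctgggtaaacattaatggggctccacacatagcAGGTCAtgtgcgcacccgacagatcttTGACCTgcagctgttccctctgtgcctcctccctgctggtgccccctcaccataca
Slc20a1 promoter: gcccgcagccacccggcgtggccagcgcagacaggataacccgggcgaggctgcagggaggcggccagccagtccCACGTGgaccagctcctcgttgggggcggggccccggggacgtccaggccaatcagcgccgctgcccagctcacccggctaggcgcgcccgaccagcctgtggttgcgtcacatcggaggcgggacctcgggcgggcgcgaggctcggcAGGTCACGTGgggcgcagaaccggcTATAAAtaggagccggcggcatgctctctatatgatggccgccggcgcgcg

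Slc34a1 carries most of the phosphate that the mouse proximal tubule takes back. At 2 months its signals were 13.79 to 13.96 in diabetic kidneys and 13.72 to 14.02 in control kidneys, and at 4 months 13.31 to 13.56 in diabetic kidneys, against 13.50, 13.51, 13.53 and 13.57 in control kidneys. The groups overlapped at both ages, and the differences of 0.05 ± 0.08 (adjusted p = 0.834) and -0.06 ± 0.08 (adjusted p = 0.875) were not called. The 8-month diabetic signals were 12.84, 13.09, 13.33, 13.41, 13.44 and 13.48, against 13.52 to 13.54 in control kidneys. Every diabetic array lay below every control array, and the spread of the diabetic arrays, with an SD of 0.25, was far wider than that of the controls, 0.01. The difference was -0.27 ± 0.08, or 0.83 of the control mean (adjusted p = 0.0107). It was not called when the 8-month arrays were fitted alone (adjusted p = 0.0688).

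Slc34a3, the second brush border cotransporter, was called at 8 months alone, and narrowly. At 2 months its signals were 11 to 11.31 in diabetic kidneys, against 10.48 to 10.96 in control kidneys. The groups did not overlap, the exact permutation p was 0.00216, the smallest 6 against 6 arrays can give, but the difference of 0.34 ± 0.18 was not called across all genes (adjusted p = 0.355). At 4 months they were 10.71 to 11.08 in diabetic kidneys, against 10.60, 10.74, 10.77 and 10.80 in control kidneys, with a difference of 0.15 ± 0.19 (adjusted p = 0.879). At 8 months the diabetic signals were 8.84, 9.78, 10.28, 10.42, 10.65 and 10.76, against 10.47 to 10.74 in control kidneys. The diabetic arrays reached from far below the controls to just above them, and the difference was -0.51 ± 0.18, or 0.704 of the control mean (adjusted p = 0.042, exact permutation p = 0.0801). Without diabetic array 5 it was -0.25 (adjusted p = 0.143), without diabetic array 3 it was -0.44 (adjusted p = 0.117), and the call was also lost without control array 1, 3, 4, 5 or 6. With the replicate number as a block the adjusted p was 0.0524.

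Slc20a1, the phosphate carrier of the other family, was the only transporter of the 3 that rose. Its signals at 2 months were 8.67 to 9.40 in diabetic kidneys and 8.90 to 9.56 in control kidneys, with a difference of -0.10 ± 0.15 (adjusted p = 0.827). At 4 months they were 8.58 to 9.16 in diabetic kidneys, against 8.33, 8.34, 8.57 and 8.78 in control kidneys, with a difference of 0.32 ± 0.17 (adjusted p = 0.492, exact permutation p = 0.0485). The groups overlapped at both ages. The 8-month diabetic signals were 9.38, 9.45, 9.58, 9.87, 10.10 and 10.48, against 8.58 to 9.29 in control kidneys with a median of 8.94. All diabetic arrays lay above all controls, and the difference was 0.89 ± 0.15, or 1.85-fold (adjusted p = 7.76e-05). A dim second probe set with a mean of 6.54 differed by 0.29 ± 0.31 at 8 months (adjusted p = 0.634), another lay below the filter, and the mean of all 3 sets was not called (0.37, adjusted p = 0.0792).

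Within the 6 diabetic kidneys of 8 months the 3 carriers ordered the arrays in nearly the same way. From the highest to the lowest Slc34a1 signal the arrays were 4, 1, 6, 2, 3 and 5, and Slc20a1 gave this order from lowest to highest. Slc34a3 ran 4, 6, 1, 2, 3 and 5. Kl put arrays 6, 4 and 1 above 2, 5 and 3, and Cubn put 4, 6 and 1 above 2, 5 and 3. Cyp27b1 was lowest on array 6, at 7.39, then on array 4, at 8.17, and highest on array 3, at 10.31. The mean of 9 tubular injury genes was highest on array 3, at 11.01, and lowest on array 4, at 9.13, but array 5, with the lowest Slc34a1 and Slc34a3, was next to lowest at 9.58. The mean of 19 proximal tubule genes ran 4, 6, 1, 2, 5 and 3 from high to low, the order of Cubn, between 11.98 and 11.53. The mean of 9 genes of the distal convoluted and connecting tubule ran 4, 1, 6, 2, 5 and 3, between 11.16 and 10.51. The part of these lists in the orders was not tested. These orders describe 6 arrays that share their normalization, and no test was made of them.

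**Figure D4:**
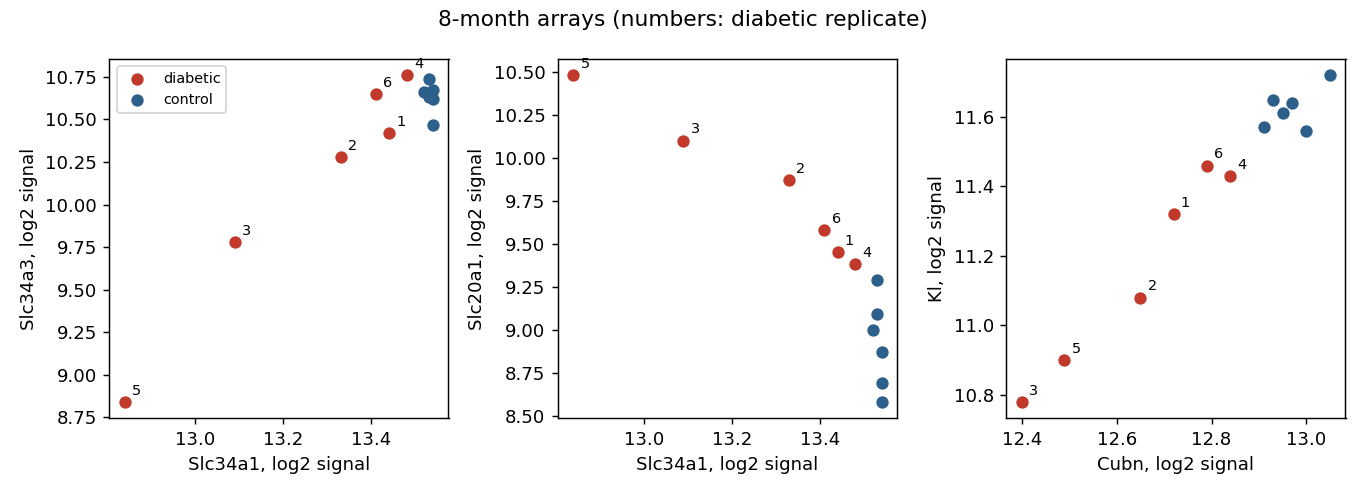
Log2 signals of the 8-month arrays for Slc34a3 against Slc34a1, Slc20a1 against Slc34a1, and Kl against Cubn, with the diabetic arrays numbered by replicate. The controls form a tight cluster in Slc34a1 between 13.52 and 13.54, and the diabetic arrays spread away from it, with arrays 3 and 5 farthest.

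Lrp2 and Cubn, the receptors for filtered protein, fell together at 8 months. Lrp2 had signals of 12.64 to 13.19 in diabetic kidneys at 2 months, against 12.32 to 13.68 in control kidneys, and the overlapping groups differed by -0.19 ± 0.13 (adjusted p = 0.533). At 4 months the signals were 12.23 to 12.61 in diabetic kidneys, against 12.74, 12.88, 12.98 and 13.01 in control kidneys. The groups did not overlap, with an exact permutation p of 0.00303, the smallest these groups can give, while across all genes the difference of -0.42 ± 0.14 was not called (adjusted p = 0.18). A second bright probe set with the same difference, -0.42, was called in a fit of all probe sets (adjusted p = 0.0457). At 8 months the signals were 12.11 to 12.72 in diabetic kidneys with a median of 12.47, against 12.85 to 13.01 in control kidneys with a median of 12.96. The groups did not overlap, and the difference was -0.50 ± 0.13, or 0.706 of the control mean (adjusted p = 0.00658). The second bright set gave -0.51 ± 0.09 (adjusted p = 0.000246). A dim set with a mean of 6.52 differed by 0.01 ± 0.18 at 4 months and by -0.41 ± 0.17 at 8 months and was called at neither (adjusted p = 0.996 and 0.121).

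Cubn showed the same direction with a smaller size. At 2 months its signals were 13.14 to 13.30 in diabetic kidneys and 13.11 to 13.50 in control kidneys, and at 4 months 12.24 to 12.74 in diabetic kidneys, against 12.62, 12.70, 12.79 and 12.84 in control kidneys. Neither difference was called, -0.12 ± 0.08 at 2 months (adjusted p = 0.471) and -0.17 ± 0.08 at 4 months (adjusted p = 0.429). By 8 months they were 12.40 to 12.84 in diabetic kidneys with a median of 12.68, against 12.91 to 13.05 in control kidneys with a median of 12.96. No diabetic array reached the controls, and the difference was -0.32 ± 0.08, or 0.801 of the control mean (adjusted p = 0.00322). A second probe set gave -0.39 ± 0.11 (adjusted p = 0.0114). The 8-month calls of Lrp2 and Cubn held without each single array, with differences from -0.56 to -0.44 and from -0.36 to -0.27.

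Whether the diabetic difference itself was another at 8 than at 2 months was tested for each gene. The test called 3 of the 9 genes, where 3.89% of all genes tested were called, 3.01% higher and 0.877% lower. The difference of Slc20a1 was 0.99 ± 0.22 higher at 8 months (adjusted p = 0.00671). That of Kl changed by -0.74 ± 0.21 (adjusted p = 0.0371) and that of Slc34a3 by -0.85 ± 0.25 (adjusted p = 0.0459). The change was -0.32 ± 0.11 for Slc34a1 (adjusted p = 0.0883), -0.31 ± 0.19 for Lrp2 (adjusted p = 0.407) and -0.19 ± 0.11 for Cubn (adjusted p = 0.367). For Kl the call was lost without 2-month diabetic array 1 or 3, 8-month diabetic array 2, 3 or 5, or 8-month control array 1, 2 or 5, with values from -0.80 to -0.56 over all left-out arrays. For Slc34a3 it was lost with the replicate block (adjusted p = 0.0573) and without 15 of the 24 arrays. It held without 2-month diabetic array 1 or 2, 2-month control array 5 or 6, or 8-month diabetic array 1, 2, 4, 5 or 6. Between 4 and 2 months limma called 0 of the 9 genes, with 0 at an unadjusted p under 0.05, and 0% of all genes. Between 8 and 4 months it called 0 of the 9, with 3 at an unadjusted p under 0.05, and 0.877% of all genes, 0.738% higher and 0.138% lower.

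Across age, levels can be ordered only with the reservation that arrays of different ages may be scaled apart, and age and array batch cannot be told apart. From 2 to 8 months 7 of the 9 genes were called within diabetic kidneys, where 66% of all genes were called, 25% higher and 41% lower, and 3 within control kidneys, where 63.8% were, 21.2% higher and 42.6% lower. In diabetic kidneys the 8-month minus 2-month difference was 1.58 ± 0.45 for Cyp27b1, 0.78 ± 0.15 for Slc20a1, -0.84 ± 0.15 for Kl, -1.03 ± 0.18 for Slc34a3, -0.62 ± 0.08 for Slc34a1, -0.54 ± 0.08 for Cubn and -0.41 ± 0.13 for Lrp2. In control kidneys it was 0.35 ± 0.13 for Vdr, -0.31 ± 0.08 for Slc34a1 and -0.34 ± 0.08 for Cubn, and the last 2 turned to 0.06 and 0.03 with quantile normalization over all arrays. Cyp27b1 had its highest group mean in diabetic kidneys of 8 months, 9.24 ± 1.20 (SD, n = 6). Next stood diabetic kidneys of 2 months at 7.67 ± 1.03 (SD, n = 6) and of 4 months at 6.97 ± 0.93 (SD, n = 7), which lay within 1 SD of each other. The control means were lower at all ages, at 6.06 ± 0.37, 5.54 ± 0.36 and 6.30 ± 0.53 for 2, 4 and 8 months (SD, n = 6, 4 and 6).

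Lists of related genes were read against the 16.8% of all genes called at 8 months, 9.87% higher and 6.95% lower. Of 12 tested genes of vitamin D metabolism and calcium transport, 1 rose and 2 fell at that age. Casr, the calcium-sensing receptor, fell by 0.92 ± 0.11 (adjusted p = 2.53e-07), after a narrowly called -0.45 ± 0.12 at 4 months (adjusted p = 0.0498). Slc8a1, the sodium-calcium exchanger of the distal tubule, fell by 1.06 ± 0.19 (adjusted p = 0.000141) and is also counted among the distal tubule markers, and Cyp27a1, a mitochondrial enzyme that hydroxylates sterols and vitamin D, rose by 0.36 ± 0.11 (adjusted p = 0.0255). The list had a median of -0.04 at 8 months, and limma called 0 of its genes at 2 months, with 0 at an unadjusted p under 0.05. By p, Casr at 4 months ranked 126 among the 126 calls of that age. Without control arrays 3 and 4 of 4 months, 5 calls remained over all genes. Whether the 4-month calls in the lists here and below stay without those arrays was not tested.

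Of 15 tested genes of phosphate regulation, 2 rose and 2 fell at 8 months, with a list median of -0.06, beside 9.87% and 6.95% of all genes. Slc34a2, a sodium-phosphate cotransporter best known from lung and intestine, rose by 1.06 ± 0.20, or 2.08-fold (adjusted p = 0.000193). Stc1, which encodes stanniocalcin, rose by 0.55 ± 0.17 (adjusted p = 0.0227) and had risen by 0.89 ± 0.19 at 4 months (adjusted p = 0.0103). Pth1r, the parathyroid hormone receptor, fell by 0.33 ± 0.10 (adjusted p = 0.0168). The FGF receptor Fgfr4 fell by 0.28 ± 0.08 (adjusted p = 0.0204) and by 0.31 ± 0.08 at 2 months (adjusted p = 0.0383). Fgfr3, another FGF receptor, fell by 0.58 ± 0.10 at 2 months (adjusted p = 0.000639), with -0.25 ± 0.10 at 8 months.

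Of 18 tested partners of megalin and cubilin in endocytosis, 2 rose and 1 fell at 8 months and limma called 0 at 2 or 4 months, with 4 and 2 at an unadjusted p under 0.05. The 3 calls at 8 months are a share near the 16.8% of all genes. Lrpap1, the chaperone of megalin, fell by 0.36 ± 0.08 (adjusted p = 0.00149). Rab11a, of recycling endosomes, rose by 0.24 ± 0.06 (adjusted p = 0.00373), and Gipc1, an adaptor that binds megalin, rose by 0.33 ± 0.10 (adjusted p = 0.0245). Of the 8 genes whose proteins megalin binds, 3 rose and 2 fell at 8 months, beside 9.87% and 6.95% of all genes. Apoe rose by 0.87 ± 0.17, Clu by 0.81 ± 0.16 and B2m by 0.45 ± 0.11, of which Clu also stands in the list of tubular injury genes, while Apom, an apolipoprotein that the tubule itself makes, fell by 0.96 ± 0.16 at 8 months and by 0.73 ± 0.16 at 2 months. Alb averaged 6.59 ± 0.44 in diabetic kidneys and 8.40 ± 1.96 in control kidneys (SD, n = 6 each), a difference of -1.81 ± 0.49 (adjusted p = 0.0089). Control array 4 stood apart with Alb at 12.34, against 7.12 to 8.19 on the other control arrays and 6.01 to 7.13 on the diabetic ones, and it was also highest in Ttr, at 9.12, and Rbp4, at 9.25. Without it the Alb difference was -1.02 (adjusted p = 0.00567).

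**Figure D5:**
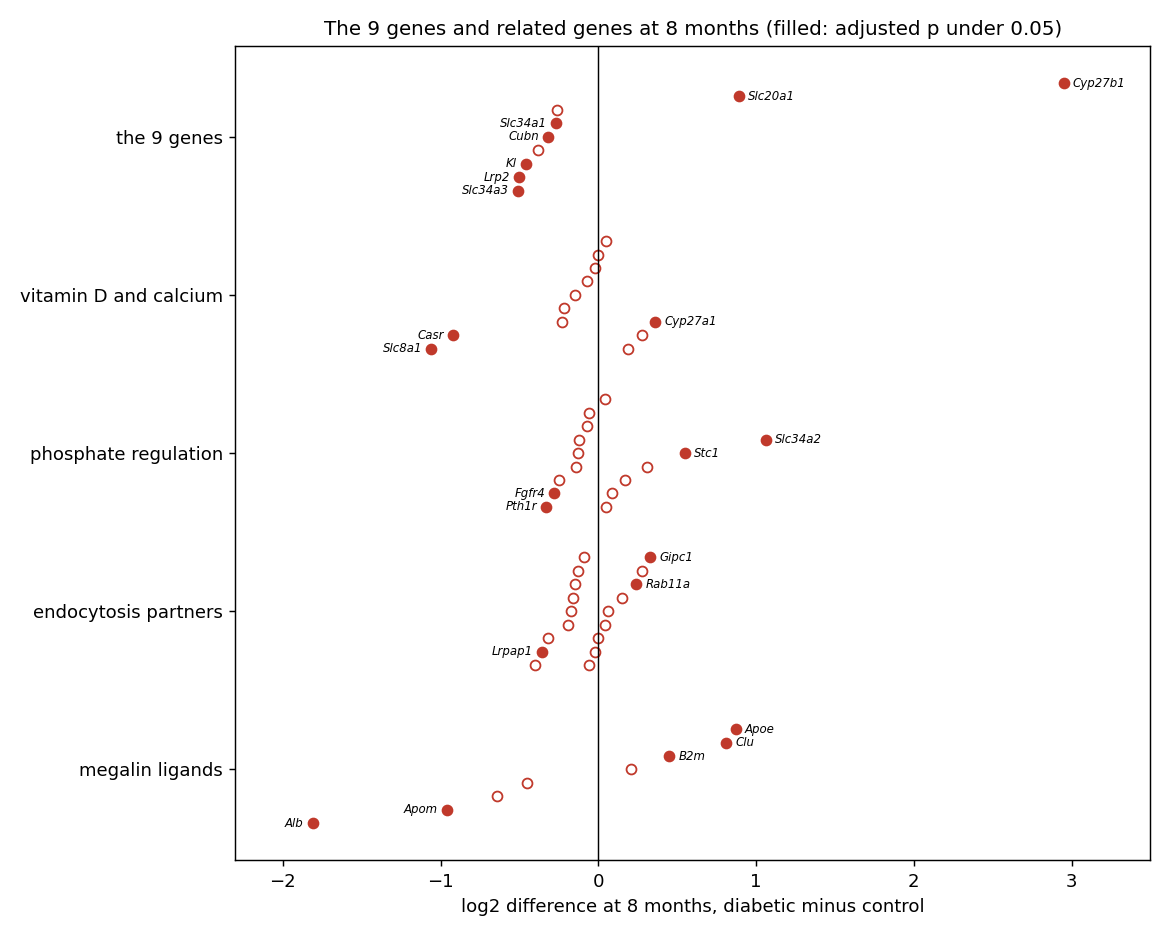
Log2 difference at 8 months, diabetic minus control, of the 9 genes and of 4 related lists, 1 point per gene, filled and named where the adjusted p was under 0.05. Within each row height only separates the points; Cyp27b1 at 2.95 has the largest positive difference and Alb at -1.81, which is -1.02 without control array 4, the largest negative one among the genes shown.

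Marker genes of cell types were examined at each age. With whole-kidney RNA, fewer cells of a type and less RNA per cell cannot be told apart. At 8 months, when 9.87% of all genes were called higher, 12 of 13 tested macrophage genes rose, and their summed linear signal was 6819 to 20218 in diabetic kidneys, against 4303 to 5368 in control kidneys. Lyz2 rose by 2.69, Cd68 by 2.35 and Ms4a7 by 2.10. Itgam and Cd163, also on the list, lay below the filter at 5.27, which uses the mean over all arrays. Genes high mainly on the 8-month diabetic arrays can pass such a filter, so the counts of rises partly depend on it. In control kidneys Cd68 averaged 5.45 at 2 and 5.33 at 4 months, and Ms4a7 averaged 5.41 and 4.96, near or below it. At 2 months limma called 0 of the 13, with 1 at an unadjusted p under 0.05, and sums of 3456 to 4002 in diabetic kidneys and 3813 to 4422 in control kidneys. At 4 months it again called 0, with 4 at an unadjusted p under 0.05, and sums of 3100 to 4486 in diabetic kidneys and 3304 to 3691 in control kidneys. Macrophages are known to be able to make Cyp27b1, and their part in its signal was not tested. All 9 tested tubular injury genes rose at 8 months, with sums of 8502 to 24895 in diabetic kidneys, against 5725 to 6272 in control kidneys. Among them Lcn2 rose by 4.79, Havcr1 by 3.01 and Cd44 by 2.89. Krt20 and Sox9, also on the injury list, lay below the filter, and Spp1 had no probe set of its own. In control kidneys Lcn2 averaged 4.74 at 2 and 4.97 at 4 months, and Cd44 averaged 5.08 and 5.14, below the filter at 5.27. The count of rises among the injury genes thus also depends partly on the filter. At 4 months the injury sums already lay apart, at 6172 to 8193 in diabetic kidneys, against 4791 to 5239 in control kidneys. Clu, the brightest of the 9, weighs most in these sums, and its 4-month rise of 0.55 ± 0.17 was not called by limma (adjusted p = 0.14). The mean log2 signal of the 9 genes, which weighs them alike, also lay apart, at 7.79 to 8.27 in diabetic and 7.36 to 7.50 in control kidneys. Of these 9 genes Krt18, a keratin, was called at that age, with a rise of 0.60 ± 0.14 (adjusted p = 0.0204). Of 6 lymphoid genes 4 rose at 8 months, with sums of 1963 to 9562 in diabetic kidneys, against 1491 to 3073 in control kidneys.

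Of 19 proximal tubule genes 1 rose and 5 fell at 8 months, with a median of -0.09, where 6.95% of all genes were called lower. Their sums were 83239 to 106789 in diabetic kidneys, against 106073 to 110674 in control kidneys, so that a single diabetic array, number 4, lay within the control range. By the mean log2 signal of the same genes, diabetic arrays 4 and 6, at 11.98 and 11.90, lay within the control range of 11.87 to 12.04. Slc22a7, an organic anion carrier, fell by 1.18 ± 0.21, the glucose carrier Slc5a2 by 0.46 ± 0.09 and Miox, an inositol-degrading enzyme, by 0.44 ± 0.10. Beside these stand the differences of Slc34a1 at -0.27, Slc34a3 at -0.51, Lrp2 at -0.50 and Cubn at -0.32. Of 9 genes of the distal convoluted and connecting tubule, where Klotho is also made, 7 fell, with a median of -0.58 and sums of 31267 to 44919 in diabetic kidneys, against 49298 to 51456 in control kidneys. Of the thick ascending limb genes 4 of 5 fell, of the podocyte genes 1 of 4, and of the endothelial genes limma called 0 of 5, with 0 at an unadjusted p under 0.05. The thick ascending limb sums were 25358 to 28818 in diabetic kidneys, against 32642 to 33558 in control kidneys. At 4 months, when the Lrp2 signals of the groups did not overlap, they were 27211 to 29529 in diabetic kidneys, against 30664 to 34251 in control kidneys, with 0 of 5 genes called by limma and 4 at an unadjusted p under 0.05. The part of these cell types in the differences of the 9 genes was not tested.

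For each of the 9 genes the most similar genes were taken by Pearson r over the 35 arrays after the mean of each age was removed, so that the diabetic difference remains in r. Slc34a1 was most like Miox (r = 0.912), then Aldh4a1 and Slc22a8, and Slc34a3 was most like Slc34a1 (r = 0.869). Lrp2 was closest to Fads2 (r = 0.872), Ace and Lrrk2, and Cubn to Mep1b (r = 0.853), Pik3c2g and Tcn2. Kl followed Slc16a4 (r = 0.856), Lztr1 and Ndufs1. Cyp27b1 was nearest to Vcl (r = 0.853), Cdkn1a and Crip1, but with the mean of each group removed its r with Vcl was 0.575. Slc20a1 behaved likewise, with Mthfd2 at 0.857 and at 0.676 without the group means, followed by F2r and Srxn1. Cyp24a1 ran with Nr1h4 (r = 0.816), Aspa and Mmadhc, with r = 0.826 for Nr1h4 without the group means. Vdr had the weakest best match, Tmem65 (r = 0.785), before Ttc7b and Hadhb. These r describe arrays that share their normalization and carry no test.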

How the data were processed

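Total RNA of whole kidney was extracted with TRIzol and biotin-labelled for Affymetrix arrays, per the labels' protocols. The authors deposited 1 table of log2 probe set signals for 45101 probe sets on 35 arrays. For the deposited log2 values, background correction, summary method and normalization were not given in the sources used here, and the signals were used as deposited. The number of arrays limits the precision, and no 2 arrays correlated above 0.9975.

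Probe sets were named from the platform annotation, in which 34945 had 1 gene, 932 had several and were left out, and 34741 symbols matched the RefSeq gene table by gene ID. For each of 18193 genes the probe set of highest mean stood for the gene, and genes at or above the 40th percentile of probe set means (log2 5.27) were tested, which left 13004. A mean for each of the 6 groups was fitted to all arrays with lmFit and eBayes of limma 3.58.1 in R 4.3.3, with 29 residual degrees of freedom. P-values were adjusted by Benjamini and Hochberg over all genes tested and called under 0.05. Differences of the diabetes effect between ages were contrasts of the same fit. Exact permutation tests of single genes were two-sided, within an age. The procedure was tested on simulated data. Figures were drawn with matplotlib 3.10.9.

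The 9 genes were named in every comparison. From each related list up to 5 called genes with the smallest p were named, from each marker list up to 3, and for each of the 9 genes the 3 genes of highest r. The members and lists were chosen with earlier results of these data known. Same-numbered arrays of both groups deviated together at 2 months, with r between 0.246 and 0.444 in 6 of 6 pairs. At 4 months 1 of 4 pairs and at 8 months 2 of 6 exceeded 0.1, and the labels do not say that a number marks a shared batch or day, so the replicate block was kept as an alternative. Other alternatives changed the choice of probe set, the filter, the scaling, the array weights, covariates for clock genes and RNA quality, and the arrays included. Promoter windows and their coordinates came from RefSeq, build GRCm38.p6. Cyp24a1 had no entry there.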

Additional observations from a re-analysis of the deposited data

Results flagged for a closer look

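In the 54 combinations of a gene and a group, 3 held an array far from the others of its group, by its gap over the range. That share is near the 1 in 20 that chance gives for independent combinations. These combinations share arrays, and Cyp24a1 and Kl were flagged on the same one, so the count is no test of chance. Cyp24a1 stood at 7.21 on control array 6 of 2 months, the one with the high beta-actin ratio, against 9.90 to 10.96 on the other 5 control arrays. Kl stood at 10.83 on the same array, against 11.85 to 11.93 on the others. Cubn stood at 13.30 on diabetic array 1 of 2 months, against 13.14 to 13.19 on the others. The diabetes effect also differed between ages for 3 of the 9 genes in limma's test of the difference. The 8-month effect minus the 2-month effect was -0.74 for Kl (adjusted p = 0.0371), -0.85 for Slc34a3 (adjusted p = 0.0459) and 0.99 for Slc20a1 (adjusted p = 0.00671).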

How the results depend on the processing

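At 8 months 5 to 7 of the 9 genes were called under every alternative run, and the calls of Cyp27b1, Lrp2 and Cubn held in all of them. At 2 months the count of 1 became 0 with the mean of all probe sets, without the filter, with the clock covariate, with the RNA quality covariate, in the fit of that age alone, without arrays 5 and 6, and without the high-Arntl arrays. It became 2 with array weights and 2 with unadjusted exact permutation tests, and it was 0 to 1 without single arrays. At 4 months the count of 0 became 2 with array weights, 1 in the fit of that age alone and 3 with exact permutation tests. The exact tests are unadjusted, and their share over all genes was not computed. The count of 3 for the difference between 8 and 2 months was 1 to 4 without single arrays. The alternatives that leave out arrays 5 and 6, controls 3 and 4 of 4 months or the high-Arntl arrays were chosen after seeing the data. With the replicate block the counts were 1, 0 and 6 at 2, 4 and 8 months and 2 for the difference between ages; only Slc34a3 lost its calls. Kl at 8 months lost its call with the clock covariate (-0.40, adjusted p = 0.0594), and Slc34a3 lost its own with that covariate (-0.42, adjusted p = 0.0972), with array weights (-0.29, adjusted p = 0.154) and in the fit of that age alone (adjusted p = 0.188). Between ages Kl lost its call with array weights (-0.45, adjusted p = 0.0511), Slc34a3 without the filter (adjusted p = 0.0512) and Slc20a1 with the mean of all probe sets (0.36, adjusted p = 0.396). Array weights added calls for Lrp2 at 2 months (-0.35, adjusted p = 0.00832) and 4 months (-0.40, adjusted p = 0.00401) and for Cyp27b1 at 4 months (1.47, adjusted p = 0.0285).

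The following values changed sign, and none of them belonged to a called difference except the control age changes of Slc34a1 and Cubn. The mean of all probe sets gave -0.05 for Vdr and 0.01 for Slc20a1 at 2 months, 0.10 for Kl at 4 months and 0.31 for the control age change of Slc20a1. Array weights gave 0.04 for Slc20a1 at 2 months, -0.16 for the Cyp24a1 difference between ages and -0.91 for its diabetic age change. The clock covariate gave -0.01 for Slc34a3 at 4 months and 0.27 for Cyp24a1 at 8 months, and the replicate block gave 0.02 for Vdr and 0.05 for Kl at 4 months. Slc20a1 at 2 months was 0.12 without arrays 5 and 6, and Kl at 4 months was 0.01 without controls 3 and 4. Without the high-Arntl arrays the 2-month values were 0.57 for Cyp24a1, -0.01 for Slc34a1 and 0.04 for Slc20a1. Without single arrays Vdr ranged from -0.03 to 0.17 at 2 months and from -0.14 to 0.13 at 4 months, Kl from -0.08 to 0.06 at 4 months, Cyp24a1 from -0.68 to 0.09 at 8 months and its difference between ages from -0.04 to 1.18. The cause of these shifts was not tested.

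Age changes also moved with scaling. Quantile normalization over all arrays gave control age changes of 0.14 for Kl, 0.06 for Slc34a1, 0.25 for Lrp2 and 0.03 for Cubn, a diabetic one of 0.06 for Vdr, and 1 called gene in controls instead of 3. Scaling arrays to one mean and spread gave control changes of 0.12 for Cyp24a1, 0.28 for Kl, 0.24 for Slc34a1, 0.09 for Slc34a3, 0.40 for Lrp2 and 0.15 for Cubn, a diabetic one of 0.21 for Vdr, and 4 called genes in diabetic kidneys instead of 7. Without single arrays the diabetic age change ranged from -0.15 to 1.07 for Cyp24a1 and from -0.07 to 0.06 for Vdr, and the control one from -0.65 to 0.10 for Cyp24a1 and from -0.24 to 0.03 for Lrp2.

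Over all genes the 330 calls of 2 months became 1296 with array weights, 553 with the replicate block, 64 in the fit of that age alone and 696 with arrays 5 and 6 as a batch term. They became 515 without diabetic array 2, 219 without control 1, 192 without control 2, 512 without control 5 and 162 without the high-Arntl arrays. The 126 calls of 4 months became 942 with array weights, 358 in the fit of that age alone, 5 without controls 3 and 4, 78 without diabetic array 5, 36 without control 3 and 29 without control 4. The 506 calls for the difference between ages became 1118 with array weights and 329 without 8-month diabetic array 3. The split of 54 higher and 72 lower at 4 months became 71 and 58 with quantile normalization over all arrays, 75 and 65 within each age and 48 and 40 with scaling. For the difference between ages 114 of 506 calls were lower, against 223 of 668 with quantile normalization and 242 of 702 with scaling.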
